A study of Mus musculus with 2 samples.

Results

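The erythroid transcription factor complex is described here through 10 genes, Gata1, Gata2, Klf1, Tal1, Lmo2, Ldb1, Nfe2, Zfpm1, Gfi1b and Cbfa2t3, out of 43346 genes measured in newborn mouse spleen. The members were chosen by symbol from a list of erythroid regulators, with earlier results of these data known. All 10 were found in both libraries through their Ensembl identifiers. Total RNA longer than 200 nt was sequenced from whole spleens, with 10 ng of RNA per library and no cell type isolated. The samples form a single group, P0 spleen, with n = 2: mice of the strain labelled B6NCrl, 0 day old, with no treatment or engineered allele named and the sex not collected. Replicate 1 came from pup 2 and replicate 2 from pup 1. The descriptions place both pups in the same pregnancy, and both samples carry the same donor identifier.

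The libraries held 33122187 estimated counts in replicate 1 and 32162543 in replicate 2. With 1 library per pup and no second condition, differences between the libraries are given as ratios of replicate 1 over replicate 2, with no p-value. The spleen label was checked against 8 genes that pattern the spleen, and 8 of 8 were at 1 TPM (a transcript level corrected for length and library total) or more in both libraries, led by Tcf21 at 125 ± 15.3, Nr2f2 at 31.7 ± 7.20 and Wt1 at 23.2 ± 5.66 TPM (SD, n = 2). Transcripts of 10 pancreatic exocrine genes, led by Ctrb1, Clps and Cela2a, were also present, and summed to 985 TPM in replicate 1 and 339 TPM in replicate 2.

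As background, GATA1 and GATA2 are zinc finger proteins that bind GATA motifs and drive red cell, megakaryocyte and mast cell genes. TAL1 pairs with an E protein on E-box motifs, and the adaptors LMO2 and LDB1 join it to GATA1 and loop distant enhancers to promoters, as at the beta-globin locus. KLF1 binds CACCC motifs and activates the adult beta-globin gene, NFE2 works with small Maf proteins, ZFPM1 (also called FOG1) is the cofactor of GATA1, GFI1B is a repressor, and CBFA2T3 (also called ETO2) is a corepressor recruited by the complex. GATA2 acts mainly in stem and progenitor cells and is replaced by GATA1 as red cell precursors mature. In newborn mice the spleen still makes red cells.

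The promoters of 4 members are shown because their genes carried the highest level (Klf1), gave the complex its GATA factors (Gata1, and both starts of Gata2) or held a GATA motif close to the start at a high level (Gfi1b). The sequences are RefSeq promoter windows on GRCm38.p6, from 250 bases before to 50 after the start of transcription, read 5′ to 3′ along the gene. They lie at chr8:84901732-84902031 on the plus strand (Klf1), chrX:7967861-7968160 on the minus strand (Gata1), chr6:88193641-88193940 and chr6:88198414-88198713 on the plus strand (Gata2, distal and proximal) and chr2:28621933-28622232 on the minus strand (Gfi1b). Capitals mark exact matches, on either strand, to 3 motifs. The GATA motif was searched as GATAA, which reads TTATC on the other strand. The KLF1 motif was searched as CACCC, which reads GGGTG on the other strand. The E-box form was searched as CAGNTG, which reads CANCTG on the other strand. No matches of different motifs overlap in these 5 windows.
Klf1: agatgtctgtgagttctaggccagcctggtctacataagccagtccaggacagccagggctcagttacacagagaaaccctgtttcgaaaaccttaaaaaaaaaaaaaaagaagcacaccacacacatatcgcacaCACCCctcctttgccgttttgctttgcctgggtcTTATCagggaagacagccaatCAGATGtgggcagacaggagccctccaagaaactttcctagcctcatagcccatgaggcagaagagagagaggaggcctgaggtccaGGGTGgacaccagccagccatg
Gata1: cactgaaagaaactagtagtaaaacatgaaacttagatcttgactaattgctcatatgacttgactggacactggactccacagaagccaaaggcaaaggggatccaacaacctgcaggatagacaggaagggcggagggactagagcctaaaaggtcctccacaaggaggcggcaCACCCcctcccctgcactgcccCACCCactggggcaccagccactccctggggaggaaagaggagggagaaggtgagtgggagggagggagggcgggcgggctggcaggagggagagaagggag
Gata2 distal: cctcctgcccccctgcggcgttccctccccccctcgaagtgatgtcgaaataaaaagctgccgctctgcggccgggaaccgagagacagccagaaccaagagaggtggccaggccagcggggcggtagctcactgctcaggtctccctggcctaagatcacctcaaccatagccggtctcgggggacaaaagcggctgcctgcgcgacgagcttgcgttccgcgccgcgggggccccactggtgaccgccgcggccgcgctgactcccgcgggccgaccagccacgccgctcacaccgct
Gata2 proximal: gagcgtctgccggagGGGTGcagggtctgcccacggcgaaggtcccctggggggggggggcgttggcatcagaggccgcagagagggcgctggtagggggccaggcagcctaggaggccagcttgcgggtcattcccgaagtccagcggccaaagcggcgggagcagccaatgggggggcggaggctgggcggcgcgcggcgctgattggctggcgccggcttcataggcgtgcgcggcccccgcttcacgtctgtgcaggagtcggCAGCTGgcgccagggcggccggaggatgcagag
Gfi1b: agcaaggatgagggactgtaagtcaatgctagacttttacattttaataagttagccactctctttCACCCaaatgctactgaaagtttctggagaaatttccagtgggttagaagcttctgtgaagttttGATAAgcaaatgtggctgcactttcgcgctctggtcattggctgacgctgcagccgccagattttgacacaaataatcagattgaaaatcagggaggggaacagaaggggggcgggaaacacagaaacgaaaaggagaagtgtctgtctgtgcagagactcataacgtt

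The Klf1 window held all 3 motifs, with CACCC 114, TTATC 80 and CAGATG 59 bases before the start, counted to the first printed base of each match, and GGGTG 28 bases after it. That start is the RefSeq one, and the start of Klf1-201 in the GENCODE M21 annotation lies 54 nt upstream of it. The Gata1 window held CACCC 74 and 52 bases before the start and neither of the other motifs. The distal Gata2 window held none of the 3, and the proximal one held GGGTG 235 bases before and CAGCTG 17 bases after the start. The Gfi1b window held CACCC 184 and GATAA 119 bases before the start. The promoter table had 13 windows for 8 of the 10 members. GATAA lay in 5 of these 13 windows, against 25.4% of all 32851 windows in the table. CACCC lay in 11 of 13 against 57.5%, and CAGNTG in 6 of 13 against 51.4%. These matches are descriptions of the letters in the windows, and no binding was measured.

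All 10 members were expressed. Each stood at 1 TPM or more in both libraries, a level that 31.0% of all genes and 55.6% of the 21474 protein-coding genes reached. Together they held 1035 TPM in replicate 1 and 925 TPM in replicate 2, or 0.0980% of all TPM on average. Their levels spanned 34.9-fold between the highest and the lowest mean, with a median of 86.1 ± 2.25 TPM (SD, n = 2). Of the 10, 5 were above 100 TPM in both libraries and 4 were below 25 TPM.

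**Figure D1:**
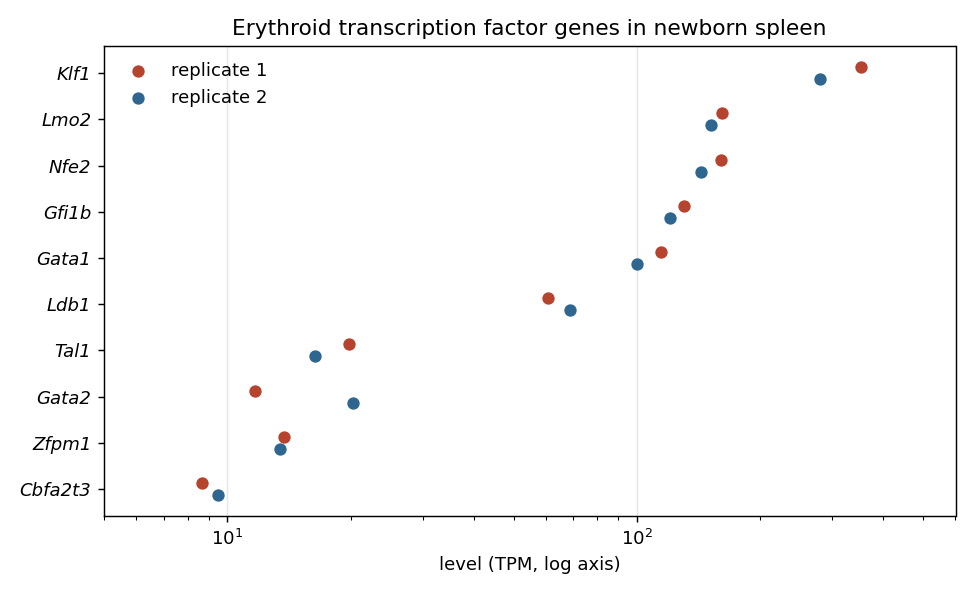
Level of each of the 10 genes in TPM (log axis) in replicate 1 and replicate 2, with genes from the highest mean at the top to the lowest at the bottom. Klf1 sits at 353.37 and 279.87 TPM and Cbfa2t3 at 8.67 and 9.49 TPM, and Gata2 has the widest gap between the libraries, 11.70 against 20.23 TPM.

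Among the DNA-binding factors, Klf1 (chromosome 8, 84901928 to 84905291) stood highest, at 353.37 TPM in replicate 1 and 279.87 TPM in replicate 2 (317 ± 52.0, SD, n = 2). It ranked 294 by mean level among protein-coding genes. Gata1 (chromosome X, 7959260 to 7978071) was measured at 114.78 TPM in replicate 1 and 100.15 TPM in replicate 2 (107 ± 10.3), above 95.3% of protein-coding genes. Klf1 therefore exceeded Gata1 in level 3.08-fold in replicate 1 and 2.79-fold in replicate 2. Gata2 (chromosome 6, 88193891 to 88207032) was measured at 11.70 TPM in replicate 1 and 20.23 TPM in replicate 2 (15.97 ± 6.03). Tal1 (chromosome 4, 115056426 to 115071755), the basic helix-loop-helix factor, was at 19.80 and 16.37 TPM (18.1 ± 2.43).

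Nfe2 (chromosome 15, 103248212 to 103258403), the blood-restricted bZIP subunit that acts at globin and platelet genes, was at 160.48 TPM in replicate 1 and 143.78 TPM in replicate 2 (152 ± 11.8). Gfi1b (chromosome 2, 28609450 to 28621982) was at 130.68 and 120.35 TPM (126 ± 7.30). Both were above Gata1 in each library.

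The adaptors differed from each other in level. Lmo2 (chromosome 2, 103957986 to 103981878) was at 161.03 TPM in replicate 1 and 152.07 TPM in replicate 2 (157 ± 6.34). Ldb1 (chromosome 19, 46031570 to 46045214) was at 60.54 and 68.80 TPM (64.7 ± 5.84). The level of Lmo2 was therefore 2.66-fold that of Ldb1 in replicate 1 and 2.21-fold in replicate 2, and the level of Ldb1 was in turn 3.06-fold and 4.20-fold that of Tal1.

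The cofactors were the lowest. Zfpm1 (chromosome 8, 122282141 to 122337251) was at 13.72 TPM in replicate 1 and 13.42 TPM in replicate 2 (13.6 ± 0.212), so that Gata1 stood 8.37-fold and 7.46-fold above its cofactor. Cbfa2t3 (chromosome 8, 122625141 to 122699109) was at 8.67 and 9.49 TPM (9.08 ± 0.580), above 66.7% of protein-coding genes. In the order of mean levels, the libraries of Lmo2 and Nfe2 overlapped, and so did those of Tal1 and Gata2 and those of Gata2 and Zfpm1. The order of Tal1, Gata2 and Zfpm1 was not the same in both libraries. All other neighbours kept apart and in the same order.

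Shares of TPM within a family were taken over the family genes that were listed, which for KLF were 9 genes, with the other KLF genes not analysed here. In most families the members held the larger part. Gata1 made up 83.6% ± 6.39 (SD, n = 2) of the 6 GATA genes and Gata2 12.5% ± 4.95. Gata6 at 2.99 TPM, Gata3 at 1.34, Gata5 at 0.385 and Gata4 at 0.270 TPM, factors known from other tissues or from T cells, made up the rest. Klf1 held 64.8% ± 3.86 of the 9 listed KLF genes, ahead of Klf3 at 54.1 ± 2.23 and Klf13 at 47.6 ± 2.14 TPM. Klf10 at 25.1, Klf2 at 18.8, Klf6 at 15.5, Klf9 at 6.26, Klf4 at 3.13 and Klf8 at 0.205 TPM followed. Gfi1b held 98.1% ± 0.509 of its pair with Gfi1, the paralog known from granulocyte and lymphoid development, which was at 2.39 ± 0.523 TPM.

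Lmo2 held 80.6% ± 2.59 of 4 LMO genes, with Lmo4 at 34.3 ± 4.05 and Lmo1 at 3.38 ± 0.658 TPM behind it. Lmo3 had 0 counts in replicate 1 and 1 count in replicate 2. Nfe2 held 69.6% ± 2.33 of 4 genes, against Nfe2l2, the oxidative stress regulator, at 47.5 ± 0.757 TPM, Nfe2l1 at 18.0 ± 2.62 and Nfe2l3 at 0.665 ± 0.276 TPM. Ldb1 held 78.9% ± 1.64 of its pair with Ldb2 (17.4 ± 3.27 TPM), and Zfpm1 90.1% ± 1.79 of its pair with Zfpm2 (1.49 ± 0.276 TPM).

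In 2 families none of the 10 factors was the most abundant gene. Tal1 held 25.3% ± 2.77 of its family while Lyl1, a closely related factor that also pairs with E proteins, held 74.6% ± 2.72. Lyl1 was at 52.80 TPM in replicate 1 and 53.70 TPM in replicate 2, so the level of Tal1 was 0.375 and 0.305 of that of Lyl1. By estimated counts, which are not corrected for length, the same ratio was 0.885 and 0.702. Tal2 was at 0.095 TPM. Cbfa2t3 held 37.6% ± 0.399 of the ETO family, next to Cbfa2t2 with 39.7% ± 1.46 (9.56 ± 0.361 TPM) and Runx1t1 with 22.7% ± 1.86 (5.50 ± 0.856 TPM). The levels of Cbfa2t3 and Cbfa2t2 overlapped between the libraries.

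**Figure D2:**
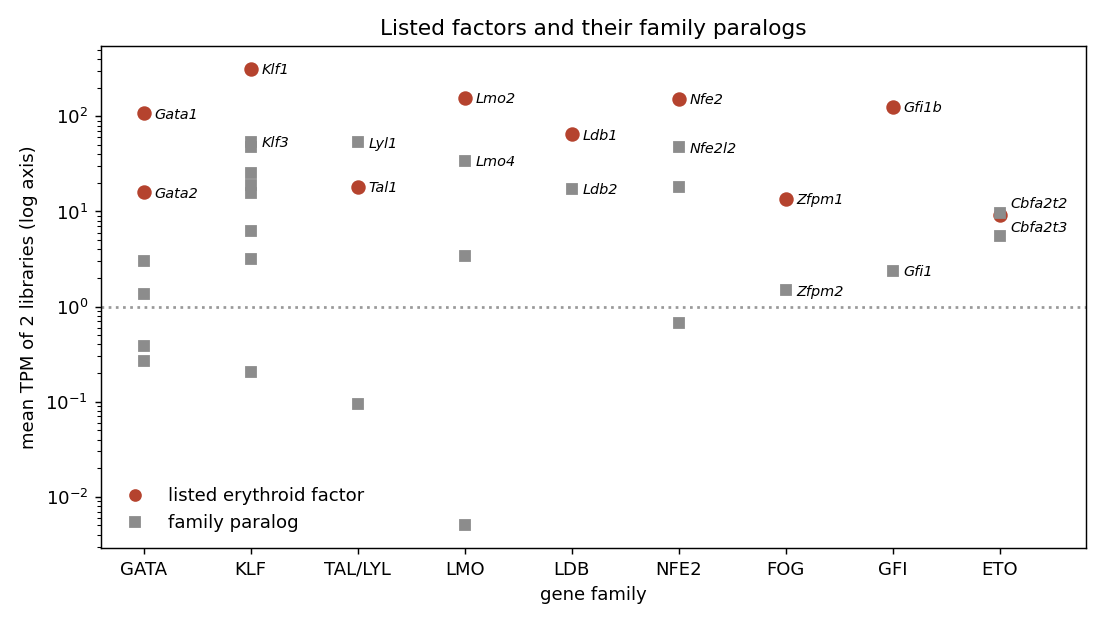
Mean level over both libraries in TPM (log axis) of the 10 listed factors (circles) and of the family paralogs analysed (squares), by gene family, with 1 TPM dotted. A listed factor is the highest of the genes plotted for GATA, KLF, LMO, LDB, NFE2, FOG and GFI, while Lyl1 at 53.3 TPM lies above Tal1 at 18.1 TPM, and Cbfa2t2 and Cbfa2t3 lie together at 9.56 and 9.08 TPM.

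The binding partners of the members were all expressed, 11 of 11 at 1 TPM or more in both libraries. Of all protein-coding genes 55.6% reached that level. Of the E proteins that pair with TAL1, Tcf3 was at 72.9 ± 0.453, Tcf4 at 22.7 ± 4.74 and Tcf12 at 18.8 ± 4.11 TPM (SD, n = 2). The single-stranded DNA binding proteins that stabilise LDB1 stood at levels near that of Ldb1 itself, with Ssbp2 at 72.5 ± 0.891, Ssbp3 at 67.9 ± 0.339 and Ssbp4 at 46.9 ± 3.64 TPM. Of the small Maf partners of NFE2, Mafg was at 35.0 ± 0.544 and Mafk at 29.3 ± 1.56 TPM, and Maff at 1.56 TPM in replicate 1 and 1.44 TPM in replicate 2. The level of Nfe2 was 4.64-fold that of Mafg in replicate 1 and 4.06-fold in replicate 2. Runx1, a further blood factor, was at 8.21 ± 1.89 TPM.

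The corepressor and coactivator genes were likewise at 1 TPM or more in both libraries, 17 of 17, against 55.6% of protein-coding genes. The histone-binding NuRD subunits Rbbp4 (282 ± 22.7 TPM) and Rbbp7 (186 ± 0.276 TPM) and the deacetylase Hdac1 (113 ± 2.51 TPM) were the highest. The histone demethylase Kdm1a and its scaffold Rcor1, through which GFI1B represses, were at 15.3 ± 0.714 and 8.59 ± 0.346 TPM, both below Gfi1b in each library.

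Genes known as targets of the complex were abundant. All 30 on the list were at 1 TPM or more in both libraries, against 55.6% of protein-coding genes. The 30 summed to 7386 TPM in replicate 1 and 6508 TPM in replicate 2. This sum leaves out the 4 adult globin genes, which summed to 277511 and 256963 TPM. The haem synthesis genes Alas2 (713 ± 4.48) and Urod (493 ± 50.6 TPM, SD, n = 2) were among the highest of the list. Of 18 other haematopoietic regulators 17 were at 1 TPM or more in both libraries, and the exception was Mitf, the mast cell and melanocyte factor. Its deposited TPM was 0.83 in replicate 1 and 1.23 in replicate 2, while the deposited posterior mean TPM was 16.59 and 17.89, so its level is uncertain and by the posterior mean all 18 passed. Myc led these at 92.1 ± 10.7 TPM, followed by Zbtb7a, a repressor of fetal globin genes in humans, at 51.2 ± 0.0495 TPM. Spi1, the myeloid and B cell factor that opposes GATA1, was at 41.86 TPM in replicate 1 and 56.87 TPM in replicate 2, so the level of Gata1 was 2.74-fold and 1.76-fold that of Spi1.

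Between the libraries the members did not all lie on the same side. By counts scaled with TMM, 7 of 10 members were higher in replicate 1 and 3 in replicate 2, where 48.9% of the 15506 genes tested were higher in replicate 1. Their median log2 ratio was 0.24, against -0.01 over all genes tested. The members' median lay 0.25 above that of all genes by TMM and 0.24 above it as a ratio of deposited TPM. The other scalings of the counts shift all genes together, so this gap could hardly change under them. Of the members 1 of 10 was 1.5-fold or more apart, close to the 7.11% of all tested genes that were, so the count does not set the members apart.

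**Figure D3:**
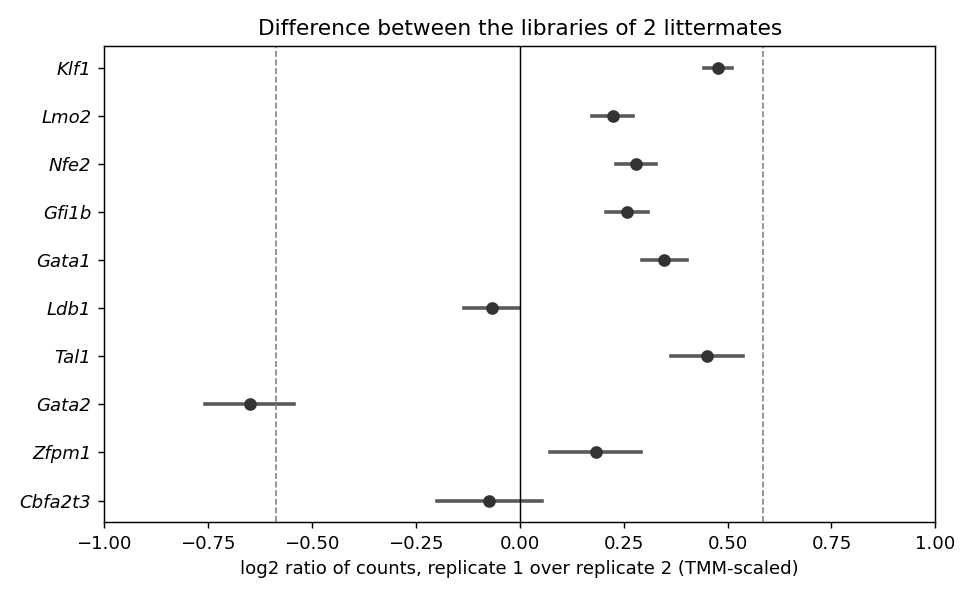
TMM-scaled log2 ratio of counts, replicate 1 over replicate 2, for each member (points) with its 95% exact counting interval (bars), and dashed lines at 1.5-fold. Klf1 at 0.48 and Gata2 at -0.65 are the ends of the range, and the interval of Gata2 crosses the 1.5-fold line.

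Gata2 was that member. It had 1138 estimated counts in replicate 1 and 1857 in replicate 2, a TMM-scaled log2 ratio of -0.65, against -0.78 as a ratio of deposited TPM. Its scaled count was thus 1.57-fold higher in replicate 2 (95% Clopper-Pearson interval of the counts 1.46 to 1.69, for counting error only). A smaller absolute ratio was found in 94.4% of the genes tested, and 4.57% of those genes were 1.5-fold or more higher in replicate 2.

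Klf1, with 15983 counts in replicate 1 and 11942 in replicate 2, had the largest ratio in the other direction, 1.39-fold (1.36 to 1.43). Tal1 followed with 2506 and 1907 counts and a ratio of 1.37 (1.29 to 1.45), and Gata1 with 6372 and 5206 counts and a ratio of 1.27 (1.23 to 1.32). Nfe2, Gfi1b, Lmo2 and Zfpm1 had ratios of 1.21, 1.20, 1.17 and 1.13. For Ldb1 (3438 and 3748 counts) and Cbfa2t3 (977.45 and 1068.62 counts) the ratios were 0.954 (0.911 to 1.00) and 0.951 (0.871 to 1.04), and the interval of Cbfa2t3 included equal levels. No member changed sign under any of the 7 settings tried.

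The balance of the GATA factors differed accordingly. The level of Gata1 was 9.81-fold that of Gata2 in replicate 1 and 4.95-fold in replicate 2 (7.38 ± 3.44, SD, n = 2), and by counts the ratios were 5.60 and 2.80. The other GATA paralogs were also higher in replicate 2 by TMM-scaled counts, at low levels, with 224 counts in replicate 1 and 338 in replicate 2 for Gata6, 89 and 153 for Gata3, 26 and 47.9 for Gata5, and 14 and 37 for Gata4. Across the family paralogs 6 of the 23 tested genes were higher in replicate 1 and 17 in replicate 2. Those 1.5-fold or more apart, 6 of 23 against 7.11% of all tested genes, were Klf9, higher in replicate 1, and Gata3, Gata4, Gata5, Klf4 and Klf8, higher in replicate 2. Klf8 rests on 22 counts in replicate 1 against 36 in replicate 2, and its counting interval included equal levels (ratio 0.655, 0.356 to 1.11).

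Lists of other genes were set beside these ratios. Of all tested genes 48.9% were higher in replicate 1, and 7.11% were 1.5-fold or more apart. In whole spleen, fewer cells of a type and less RNA per cell cannot be told apart. Of the 30 erythroid target genes 28 were higher in replicate 1, with a median log2 ratio of 0.32 and none 1.5-fold apart, and the 2 that were higher in replicate 2 were Bcl2l1 (-0.02) and Bpgm (-0.04). The 4 adult globin genes were higher in replicate 1, with a median of 0.26. The medians of the complex partners (0.11) and of the corepressors and coactivators (0.08) were closer to 0, and both turned below 0 as ratios of deposited TPM (-0.03 and -0.06), as did the corepressors and coactivators scaled by library size (-0.02). Those scalings lower all genes together, to medians of -0.14 and -0.11, and both lists stayed above these. None of the genes in these 2 lists was 1.5-fold apart.

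**Figure D4:**
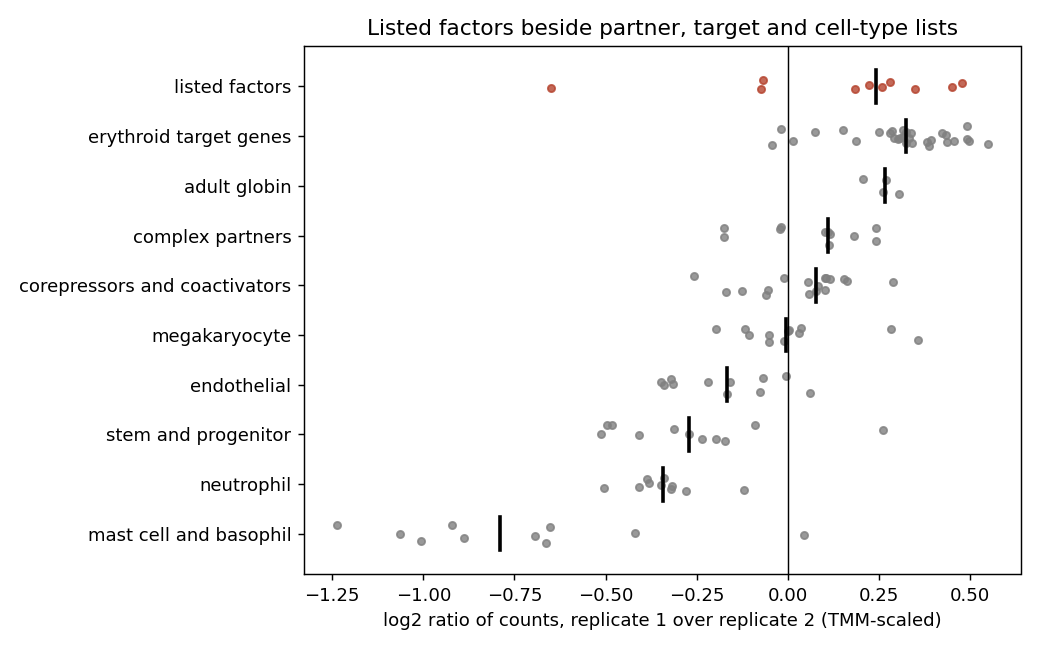
TMM-scaled log2 ratio of counts, replicate 1 over replicate 2, for the listed factors and for the genes of 9 other lists, 1 point per tested gene with the median of each list as a bar. The erythroid target genes (median 0.32) lie around the listed factors (median 0.24), while the mast cell and basophil genes (median -0.79) lie furthest to the left, on the side of Gata2.

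Gata2 is also a factor of mast cells, progenitors and endothelial cells. Most markers on each of these lists had higher scaled counts in replicate 2, past 1.5-fold on the mast cell list alone. So did all 10 neutrophil and all 8 spleen patterning genes, none past 1.5-fold. The part of any list in the Gata2 ratio was not tested. Mast cell and basophil genes summed to 889 TPM in replicate 1 and 1970 TPM in replicate 2. Of these 10 genes 9 were higher in replicate 2 and 8 were 1.5-fold or more higher there, against 4.57% of all genes tested, with a median log2 ratio of -0.79. Tpsb2, a tryptase, was at 313.72 TPM in replicate 1 and 723.11 TPM in replicate 2, Cma1, a chymase, at 217.66 and 481.82 TPM, and Mcpt4, a protease, at 126.80 and 329.88 TPM. The gene of the list that was not higher in replicate 2 was Fcer1a, with 115 and 116 counts.

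Stem and progenitor genes summed to 148 TPM in replicate 1 and 204 TPM in replicate 2, and 10 of 11 were higher in replicate 2 by TMM-scaled counts (median log2 ratio -0.27), with 0 of 11 apart by 1.5-fold. Ly6a (51.2 ± 16.3), Cd34 (29.0 ± 6.59) and Cd48 (28.0 ± 4.33 TPM) were the highest of them. The receptor gene Kit was at 19.30 TPM in replicate 1 and 24.85 TPM in replicate 2, and the exception was Mecom. Endothelial genes summed to 327 and 407 TPM, with 10 of 11 higher in replicate 2 (median -0.17) and 0 of 11 apart by 1.5-fold, the exception being Tie1, and Egfl7 (113 ± 15.8 TPM), Stab2 (76.3 ± 8.76 TPM) and Cldn5 (46.35 TPM in replicate 1 and 64.75 TPM in replicate 2) the highest. Neutrophil genes, 10 of 10, led by S100a8, S100a9 and Retnlg, were higher in replicate 2 (median -0.34), and so were the 8 of 8 spleen patterning genes (median -0.33), with 0 in either list apart by 1.5-fold. Of all tested genes 48.9% were higher in replicate 1 and 7.11% were 1.5-fold or more apart. Counts of 0 among 8 to 11 genes therefore do not set a list apart. No gene of these 5 lists was at 0 in both libraries. Megakaryocyte genes, which GATA1, TAL1, NFE2 and ZFPM1 also regulate, were split 6 to 6 (median -0.01), with Pf4 at 353.17 and 381.05 TPM, Ppbp at 98.03 and 84.40 TPM and Gp1bb at 25.96 and 31.02 TPM. The 9 tested pancreatic genes were each 1.5-fold or more higher in replicate 1, against 2.54% of all genes tested (median 1.80). The part of any of these lists in the ratios of Gata2 or of the other members was not tested.

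Transcript usage is given as the percent of a member's TPM. The 10 genes had 51 annotated transcripts, 40 of them protein-coding, and by TPM the same transcript led in both libraries in all 10. For Klf1 this was fixed, as it had a single transcript. For Gata2 the lead depended on the measure, with Gata2-202 ahead by TPM and Gata2-201 by estimated counts in both libraries. How often other genes kept the same lead is not given here. Zfpm1-201 held 99.6% ± 0.632 of its gene (SD, n = 2), Gata1-201 96.3% ± 0.668, Tal1-201 94.7% ± 1.88, Cbfa2t3-203 91.4% ± 4.83 and Lmo2-208 87.1% ± 0.911. In the other 4 genes more than 1 transcript carried a sizeable share.

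Gfi1b-201 held 70.1% ± 2.11 and Gfi1b-204 27.9% ± 1.84 of Gfi1b, with starts in the same group. Nfe2-201 held 59.3% ± 3.91 of Nfe2, and the next, Nfe2-205, held 13.4% ± 2.04. Of Ldb1, Ldb1-206 held 41.9% ± 0.502 and Ldb1-201 36.4% ± 3.83, while Ldb1-208 held 0% in replicate 1 and 7.57% in replicate 2, where the deposited credibility bounds of its level ran from 0.136 to 9.50 TPM. These shares are model estimates that divide reads of shared exons.

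Starts were then compared by joining transcripts whose annotated starts lie within 1000 nt in a chain. Lmo2 is known to be transcribed from distal and proximal promoters, and the distal group, starting at 103957986, held 89.2% of its TPM in replicate 1 and 87.7% in replicate 2 (88.4% ± 1.08, SD, n = 2). The proximal group, 11542 nt downstream, held 11.6% ± 1.08. The Lmo2 groups have 102 and 628 nt of exon of their own, distal and proximal, so the split is a model estimate. By estimated counts the distal Lmo2 group held 91.6% ± 1.02. For Gata1 the start at 7967910 held 96.7% and 95.8%, and a transcript starting 10161 nt upstream of it held 2.61% and 2.93%. By estimated counts, which are not corrected for length, that upstream transcript held 0.909% ± 0.0780. The most upstream group held 93.3% ± 3.54 of Cbfa2t3, 94.7% ± 1.88 of Tal1, 98.1% ± 0.265 of Gfi1b and 82.1% ± 1.02 of Ldb1. A second Ldb1 group, 5433 nt downstream, held 14.9% ± 0.391. Nfe2 was spread mainly over 3 groups with 59.3% ± 3.91, 13.3% ± 1.08 and 27.3% ± 2.71, from upstream to downstream. By estimated counts these were 65.5% ± 3.70, 6.27% ± 0.574 and 28.2% ± 3.10.

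**Figure D5:**
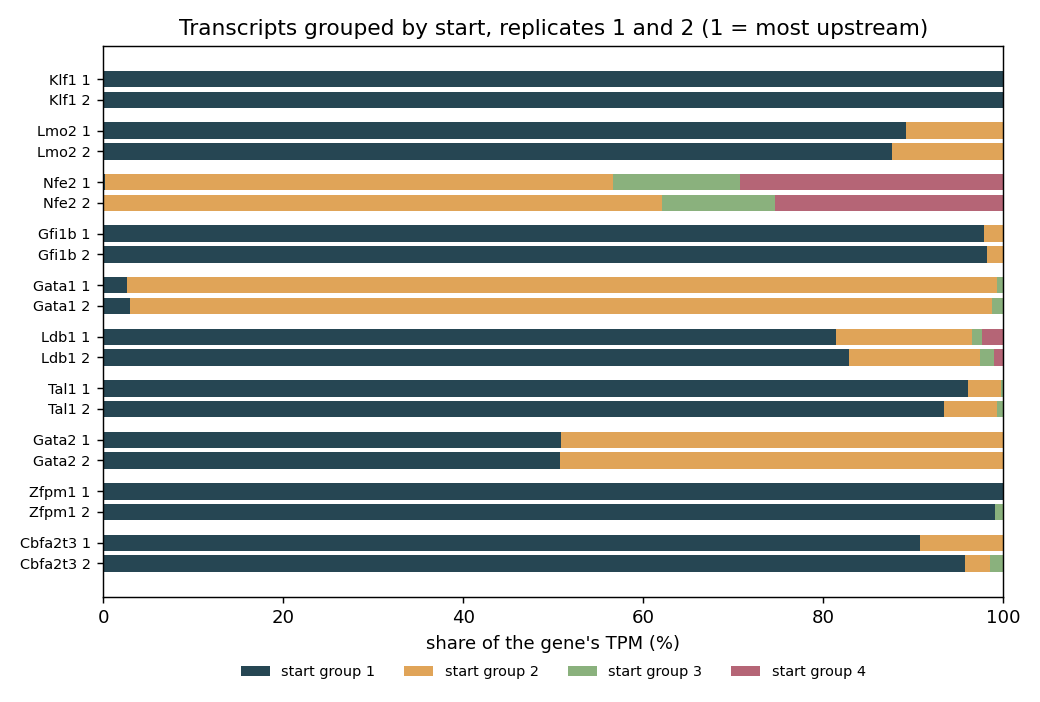
Share of each gene's TPM (%) by group of transcript starts, with replicate 1 above replicate 2 for each gene and group 1 the most upstream. Klf1, Zfpm1, Tal1 and Gfi1b are nearly all in group 1 and Gata1 in group 2, whereas Gata2 is split at 50.8% and 49.2%.

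Gata2 was the member with an even split between starts. Its distal first exon, described in blood and neural cells, belongs to Gata2-202, and the proximal, more widely used one to Gata2-201. Gata2-202 was at 5.94 TPM in replicate 1 and 10.27 TPM in replicate 2, and Gata2-201 at 5.75 and 9.96 TPM. The deposited credibility bounds were 4.77 to 6.94 and 8.40 to 11.7 TPM for Gata2-202, and 4.64 to 6.72 and 8.19 to 11.4 TPM for Gata2-201. The distal share was therefore 50.8% in each library, and both transcripts were higher in replicate 2, with bounds that did not overlap between the libraries.

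The starts are those of GENCODE M21, and the Gata2 models differ from those behind the deposited values. Gata2-201 was 3241 nt long in the deposited tables, 330 nt shorter than in M21, and the RefSeq start of the proximal window shown above lies 330 nt downstream of the M21 start. Gata2-202 was 3133 nt long, 2 nt shorter than in M21. In M21 the transcripts have 112 and 548 nt of exon of their own, distal and proximal, and share the rest. Of all 51 member transcripts 46 had the same length in both annotations. Besides Gata2, the lengths differed for Cbfa2t3-203, the leading transcript of Cbfa2t3, which was 4047 nt long in the deposited tables and 7645 nt in M21, for Klf1-201 (1534 and 1530 nt) and for an Ldb1 transcript at 0 counts in both libraries (2014 and 3133 nt). The deposited TPM of Cbfa2t3, the lowest of the 10, rests on its shorter model.

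Reads could be shared with overlapping genes, and the sources used here do not give the strand setting of the counting. In M21, Ldb1 shares 177 nt of exon with Pprc1 on the opposite strand (16.95 and 13.59 TPM). Cbfa2t3 shares 295 nt there with the antisense gene Gm10612 (7.55 and 8.38 counts). The other 8 members share no exonic base with another gene in M21. Overlaps in the models behind the deposited counts were not examined. The deposited posterior SD of the gene-level count was 0 for 8 members and at most 0.81 counts for Cbfa2t3 and Ldb1.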

How the data were processed

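Total RNA-seq of 1 P0 spleen from each of 2 pups gave 2 libraries, numbered as replicates per the labels, which name mirVana extraction, spike-ins and, among the protocols, a low-input SMARTer cDNA kit. For each library the authors deposited gene and transcript tables in the layout of RSEM on mm10, with GENCODE M4 models per the listing deposited with each sample. No aligner, version or strand setting is given in the sources used here. Expected counts were deposited as estimates that need not be whole (estimated counts). TPM was deposited by the authors over all listed features, including spike-ins. The authors also deposited credibility bounds of TPM (a signal of abundance that is never negative) and a posterior SD of the count (a score of how firmly reads were assigned). Transcript percent shares were deposited by the authors too and were recomputed here from TPM.

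GENCODE M21 (GRCm38) supplied symbols and coordinates for 42462 genes by Ensembl identifier, and 884 had no match. SDs cover the spread between these 2 libraries, which may be technical or biological. Ratios used rounded expected counts with TMM factors from edgeR 4.0.16 under R 4.3.3, with a prior count of 2 on the log2 CPM scale and a mean count of at least 20, which left 15506 genes. The 95% exact intervals cover counting error only, as the tables count reads and not molecules. DESeq2 1.42.0 size factors, library size, spike-in totals and deposited TPM were alternative scalings. The steps were tested on simulated data. Python 3.11.15, pandas 2.3.3, numpy 2.4.6, scipy 1.17.1 and matplotlib 3.10.9 were used.

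Promoter windows and their starts came from RefSeq. The members and the 13 other lists, with 181 symbols in all, were chosen with earlier results of these data known. Named are all members, all family paralogs and complex partners, and the 3 genes with the highest mean level of each other list, except 1 gene not reported here. Mitf, Kdm1a, Rcor1, Kit, Bcl2l1, Bpgm, Fcer1a, Mecom and Tie1 were named after their values were seen.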

Additional observations from a re-analysis of the deposited data

How the results depend on the processing

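No paired analysis was possible because the libraries form 1 group. The members' median level was 117.5 TPM when TPM was rescaled without the adult globin genes, against 86.1 TPM, and 84.5 to 87.7 TPM with either library left out. The count of members detected stayed at 10 at a threshold of 5 TPM and was 9 at 10 TPM, and it was 10 with either library left out. The Gata1 to Gata2 level ratio was 4.95 to 9.81 with either library left out. Leaving out a library returns the value of the other one, so these values are no check on the processing. The members' median log2 ratio was 0.14 scaled by library size and 0.10 as a ratio of deposited TPM, against 0.24. As a ratio of deposited TPM the median over all tested genes moved by -0.13, by construction of the scaling. Relative to the median of all genes the members' median was 0.24 by deposited TPM. By library size it was 0.25, which could hardly change because that scaling shifts all genes together. At a looser threshold, a ratio of 5 to 4, 4 members were apart and at 2-fold 0, against 1 at 1.5-fold. The shares of all tested genes past the looser and the 2-fold threshold are not given, so these counts do not set the members apart. Gata1 had the smallest absolute ratio of the 4, and 78.8% of the tested genes had a smaller one. No log2 ratio of a single member changed sign. The leading transcript of Gata2 did change with the measure, from Gata2-202 by TPM to Gata2-201 by estimated counts. Each ratio rests on 1 library per pup, so no difference between the libraries has a replicate check.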
